A study of Mus musculus with 32 samples.

Results

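Nestin (Nes), Sox2, Pax6, Msi1, Prom1, Fabp7, Sox3, Sox21 and Hopx are genes known from neural stem and progenitor cells, and they were taken by symbol from a table of 23420 genes counted in bulk RNA from mouse spinal cord. All 9 symbols were found, and all 9 passed the expression filter that left 16314 genes for testing. The cords came from C57BL/6J mice of 8 to 12 weeks whose cord was either left uninjured in a sham procedure or injured. Injured cords received a control treatment, Gsx1 or Nkx6.1, the last 2 being homeodomain proteins known from patterning the embryonic cord. Tissue was cut from 2 to 3 mm on each side of the lesion. Sham cords were collected at 3 and 35 days (3 libraries each), injured cords with the control treatment at 3, 14 and 35 days (3, 3 and 4 libraries), injured cords with Gsx1 at the same days (3, 3 and 4 libraries), and injured cords with Nkx6.1 at 3 and 35 days (3 libraries each). There was no sham group at 14 days, and every injured group carried some treatment, so the injury and the control treatment cannot be told apart. How the factors were given, how the injury was made, and what the control treatment held are not stated in the labels. The labels do not say whether the replicates of a group are separate animals, so the p-values measure the spread between these libraries.

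In the embryo the neural tube is lined by dividing progenitors, which are held in an undifferentiated state by transcription factors of the Sox and Pax families. In the adult cord few cells keep such genes on. Ependymal cells around the central canal express several of them, astrocytes share others, and after an injury both cell types are known to divide and to take part in the scar. The 9 genes cover several layers of that state. Nes is an intermediate filament protein and Fabp7 (brain lipid-binding protein) a fatty acid carrier of radial glia. Sox2 and Sox3 are SoxB1 transcription factors that keep progenitors from differentiating, and Sox21 is a related SoxB2 factor known to oppose them. Pax6 is a paired-box factor of the ventricular zone, Msi1 (Musashi) an RNA-binding protein, Prom1 (CD133) a membrane glycoprotein of protrusions, and Hopx a small homeodomain protein that does not bind DNA by itself. Nes is also made by endothelial and muscle cells. In bulk tissue a change in the number of cells of a type and a change in RNA per cell cannot be told apart.

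The promoters of Nes, Fabp7 and Sox2 are shown because these 3 genes rose in injured control cords at both times at which sham cords were collected. Each sequence is from RefSeq (GRCm38.p6), runs 5′ to 3′ on the strand of the gene from 250 bases before to 50 bases after its start, and is 300 bases long. Capitals mark matches, on either strand, to 6 short motifs: the SOX core ACAAT, the RBPJ core TGGGAA of Notch signalling, the CCAAT box, the AP-1 site TGANTCA, the STAT site TTCNNNGAA and the TATA box TATAAA. No marked matches overlapped.
Nes, chr3:87970843-87971142, plus strand: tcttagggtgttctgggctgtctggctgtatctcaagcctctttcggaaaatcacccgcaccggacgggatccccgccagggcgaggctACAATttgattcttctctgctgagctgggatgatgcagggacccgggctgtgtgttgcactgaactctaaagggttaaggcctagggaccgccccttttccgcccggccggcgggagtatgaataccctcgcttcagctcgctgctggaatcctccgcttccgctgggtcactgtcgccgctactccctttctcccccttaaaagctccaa
Fabp7, chr10:57784673-57784972, plus strand: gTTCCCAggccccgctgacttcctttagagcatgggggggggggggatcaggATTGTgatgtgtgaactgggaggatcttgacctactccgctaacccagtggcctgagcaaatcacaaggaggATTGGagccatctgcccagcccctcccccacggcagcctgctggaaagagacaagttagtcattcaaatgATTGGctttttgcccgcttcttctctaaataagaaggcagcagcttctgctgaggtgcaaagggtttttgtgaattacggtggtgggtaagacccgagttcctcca
Sox2, chr3:34649745-34650044, plus strand: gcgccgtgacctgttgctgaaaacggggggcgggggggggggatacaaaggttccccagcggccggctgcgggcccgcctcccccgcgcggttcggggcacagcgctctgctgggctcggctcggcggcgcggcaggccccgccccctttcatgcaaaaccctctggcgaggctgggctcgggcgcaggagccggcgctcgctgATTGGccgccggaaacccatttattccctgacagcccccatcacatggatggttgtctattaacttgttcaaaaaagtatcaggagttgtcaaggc
The Nes window held 1 SOX core, which began 161 bases before the start. The Fabp7 window held 1 RBPJ core, 1 SOX core and 2 CCAAT boxes, all on the minus strand, and the Sox2 window held 1 CCAAT box, also on the minus strand. These letters are common: among 32851 promoter windows of the same length, 31% held the SOX core, 25.6% the RBPJ core and 37.4% the CCAAT box. The AP-1, STAT and TATA letters occurred in 7.81%, 8.3% and 13.6% of windows and in none of the 3 shown. Of the 9 genes, 7 had promoter entries (10 windows in all). Msi1 and Sox3 had none.

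The genes lie on 6 chromosomes (GRCm38, GENCODE annotation, 1-based). Nes occupies 87971078 to 87980451 and Sox2 34650405 to 34652461 on the plus strand of chromosome 3. Fabp7 lies on chromosome 10 (57784881 to 57788450, plus strand), Pax6 on chromosome 2 (105668900 to 105697364, plus strand), Sox21 on chromosome 14 (118233232 to 118237030, minus strand) and Sox3 on chromosome X (60891366 to 60893430, minus strand). Chromosome 5 carries Msi1 (115429599 to 115455698, plus strand), Prom1 (43993620 to 44102032, minus strand) and Hopx (77086988 to 77115121, minus strand). All are protein-coding. The RefSeq start of Sox2, used for its promoter window, lies before the start of the gene in this annotation.

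The 32 libraries held 10.8 to 19.5 M counts (mega counts, median 14.6 M). Levels are given as CPM (counts divided by the TMM-scaled total of their library), and as mean ± SD over libraries. Sox3 had 13 to 83 counts per library, the fewest of the 9, and the other members had at least 108. Cell type markers were present in every group: none of 12 astrocyte, 12 neuron and 10 oligodendrocyte precursor markers was at 0. The transcript of the X-inactivation gene Xist exceeded 100 CPM in 7 libraries, among them control replicates 1 and 4 at 35 days, so female tissue was unevenly spread over the groups, and sham replicate 1 at 3 days and control replicate 4 at 35 days also held the Y-linked transcript Ddx3y above 10 CPM. The counted transcripts of the delivered factors did not mark their groups: Gsx1 had a mean of 0.0522 to 0.424 CPM and Nkx6-1 of 5.15 to 11.0 CPM over the 10 groups. The lowest Nkx6-1 mean was that of Nkx6.1 cords at 3 days, and the highest Gsx1 mean that of Gsx1 cords at 14 days. Groups are therefore called by their labels.

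Levels among the 9 genes were compared per kilobase of exon. The median over the 32 libraries was 53.2 CPM per kilobase for Hopx, 51.4 for Fabp7 and 36.6 for Sox2. It was 10.3 for Nes, 5.72 for Msi1, 3.89 for Sox21 and 3.04 for Prom1, and lowest for Pax6 (1.23) and Sox3 (1.09). The genes also differed in how far they ranged. Nes spanned a factor of 19.3 from its lowest to its highest library and Fabp7 a factor of 7.44, while Msi1 spanned 1.73 and Sox2 2.24.

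**Figure D1:**
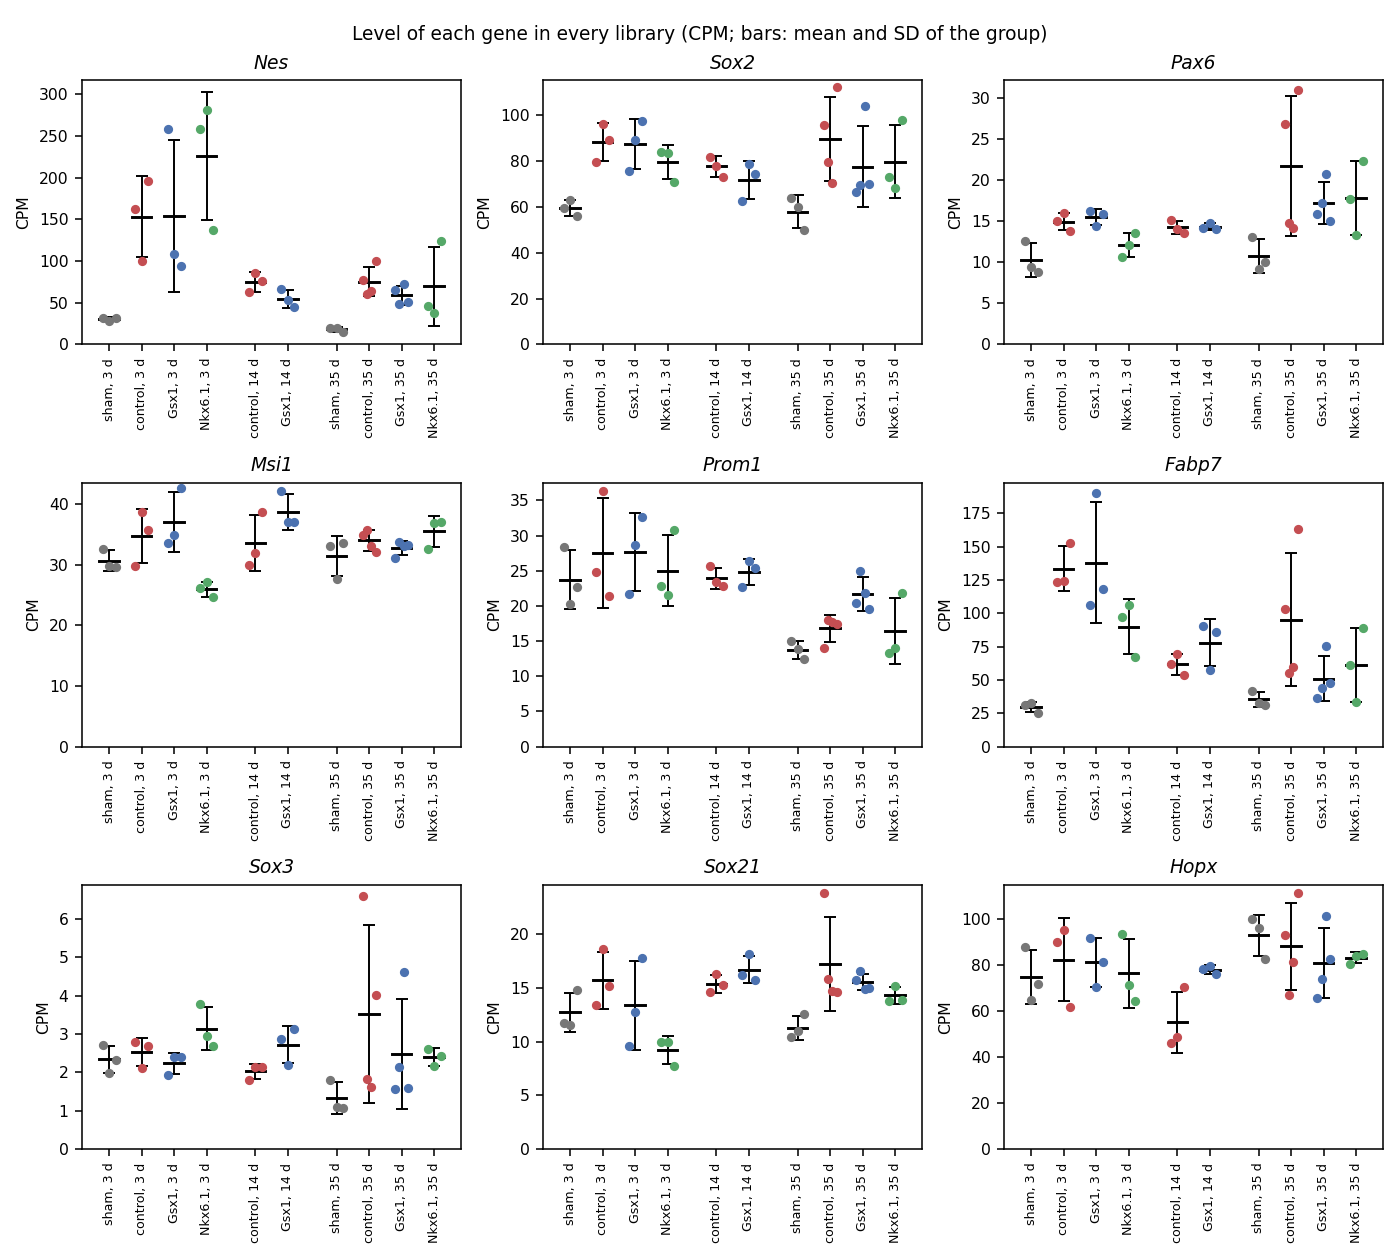
Level of each gene (1 panel per gene, vertical axis in CPM from 0) in every library, with libraries as points, the 10 groups along the horizontal axis by day and treatment, and bars for the group's mean and SD. The 3 highest group means of Nes are those of the injured groups at 3 days; control cords then had means of 153 CPM for Nes and 133 CPM for Fabp7, against 30.5 and 29.8 CPM in sham cords, while Msi1 stayed between 24.6 and 42.6 CPM in all libraries.

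Injured control cords were first compared with sham cords at 3 days, to ask which of the genes responded to the lesion. Nes, Fabp7 and Sox2 rose and no member fell, by edgeR's quasi-likelihood test with Benjamini-Hochberg adjustment over all genes (adjusted p under 0.05 here and below). At the same threshold 19.5% of the 16314 genes rose and 35.5% changed in either direction. The median log2 fold change of the 9 genes was 0.31, and that of all genes was 0.01. Sham replicates 1 and 2 and control replicate 1 were high in Xist, so female tissue was unevenly spread in this comparison.

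Nes, the filament protein, stood at 31.5, 27.9 and 32.2 CPM in the 3 sham libraries. In the injured control libraries it stood at 163, 100.4 and 196 CPM, all above the sham libraries. The mean rose from 30.5 ± 2.28 to 153 ± 48.6 CPM (SD, n = 3 each), a log2 fold change of 2.32 ± 0.38 (SE, adjusted p by edgeR = 5.71e-05). Fabp7, the fatty acid carrier, stood at 31.4, 32.6 and 25.5 CPM in sham and at 123, 124 and 153 CPM in injured control libraries. It rose 4.47-fold (log2 2.16 ± 0.35 SE, edgeR adjusted p = 5.02e-05), with sham means of 29.8 ± 3.80 and injured means of 133 ± 16.9 CPM (SD, n = 3 each). These were the largest changes among the 9 genes.

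Sox2, the SoxB1 factor, rose too. Its sham libraries held 59.5, 63.2 and 56.3 CPM and its injured control libraries 79.5, 96.1 and 89.4 CPM. The groups did not overlap, and the log2 fold change was 0.57 ± 0.17 (SE, adjusted p by edgeR = 0.0107). Its SoxB1 relative Sox3 stood at 2.34 ± 0.358 against 2.54 ± 0.363 CPM, sham against injured (SD, n = 3 each), with overlapping libraries. Its log2 fold change of 0.11 had a 95% interval of -0.73 to 0.96, which at these counts leaves changes of either sign. Pax6 was higher in every injured control library (15.1, 16.0 and 13.9 CPM) than in every sham library (12.6, 9.44 and 8.82 CPM) and missed the threshold, with a log2 difference of 0.54 ± 0.23 (SE, adjusted p by edgeR = 0.0707). Thus 4 of the 9 genes were without overlap between the groups, where 55.6% of all genes were.

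The remaining 4 genes had overlapping libraries at 3 days. The log2 differences were 0.31 for Sox21 (95% interval -0.08 to 0.69), 0.21 for Prom1 (-0.19 to 0.61), 0.18 for Msi1 (-0.05 to 0.41) and 0.14 for Hopx (-0.25 to 0.53). Each interval leaves out a rise of the size seen for Nes or Fabp7.

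Markers of several cell types moved with these rises. The summed level of 12 reactive astrocyte markers was 2014 to 2556 CPM over sham libraries and 8759.8 to 9729.6 CPM over injured control libraries at 3 days. Most of this sum was Gfap, with means of 1982 of 2251 CPM in sham and 6590 of 9349 CPM in injured control libraries. The sum of 10 mitosis genes went from 23.4 to 26.9 CPM in sham to 341 to 349 CPM. That of 10 endothelial markers went from 312 to 348 CPM in sham to 528 to 677 CPM. The macrophage and microglia sum, over 12 markers, went from 415 to 494 CPM in sham to 4775 to 7882 CPM, and the sum of 8 fibroblast markers from 306 to 515 CPM to 1184 to 3060.5 CPM. The sum of 12 neuron markers was lower after injury, at 4969.7 to 7046 CPM against 11399.8 to 12298 CPM in sham. The sum of 12 astrocyte markers was 8393 to 9244 CPM in sham and 7373 to 9699 CPM in injured control libraries. Of 12 ependymal markers listed, 9 were among the counted genes. The sum of these 9 was 52.8 to 65.9 CPM in sham and 57.6 to 65.7 CPM in injured control libraries. None of the counted markers of these lists was at 0. The 12 skeletal muscle markers summed to 71.2 and 79.1 CPM in control replicates 2 and 1 and to 437 CPM in replicate 3, the library with the most Nes. Without that replicate, Nes, Fabp7 and Sox2 kept their calls at 3 days, but leaving out 1 library does not test the part of muscle tissue. The part of all these markers in the rises was not tested.

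At 35 days the comparison of injured control with sham cords called 6 of the 9 genes: Nes, Fabp7, Sox2, Pax6, Sox3 and Sox21 rose, and no member fell. In this comparison 21.3% of all genes rose and 36.8% changed in either direction. The median log2 fold change was 0.63 for the 9 genes and 0.04 for all genes.

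Nes stood at 19.5, 19.8 and 14.5 CPM in sham libraries and at 77.2, 60.7, 63.8 and 99.9 CPM in injured control libraries. The groups were well apart, and Nes rose 4.21-fold (log2 2.07 ± 0.37 SE, edgeR adjusted p = 0.00017). Fabp7 was at 41.7, 32.8 and 31.6 CPM in sham and at 103, 55.01, 59.8 and 163 CPM in injured control libraries. It rose with a log2 fold change of 1.43 ± 0.33 (SE, adjusted p by edgeR = 0.00198), and control replicates 1 and 4 stood well above replicates 2 and 3.

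The same pair of libraries was high for the transcription factors. Sox2 was at 63.9, 59.9 and 50.03 CPM in sham libraries and at 95.9, 79.6, 70.5 and 112 CPM in injured control libraries (log2 fold change 0.63 ± 0.16 SE, edgeR adjusted p = 0.00405). Pax6 was at 13.1, 9.16 and 10.0 CPM in sham and at 26.8, 14.8, 14.2 and 31.1 CPM in injured control libraries (log2 fold change 1.01 ± 0.22 SE, edgeR adjusted p = 0.00117). For both, no injured control library was as low as a sham library, and replicates 1 and 4 were the highest. Sox3 was at 1.80, 1.10 and 1.07 CPM in sham and at 6.61, 1.82, 1.62 and 4.02 CPM in injured control libraries, and there the groups overlapped. Its log2 fold change was 1.40 ± 0.41 (SE, adjusted p by edgeR = 0.0103), and the call was lost without control replicate 1 (log2 fold change 0.89, edgeR adjusted p = 0.0671) or without sham replicate 3 (log2 1.25, edgeR adjusted p = 0.057).

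Sox21, the SoxB2 factor, was at 10.4, 10.9 and 12.5 CPM in sham and at 23.8, 15.8, 14.8 and 14.6 CPM in injured control libraries, without overlap. It rose with a log2 fold change of 0.61 ± 0.18 (SE, adjusted p by edgeR = 0.0109). Replicate 1 alone was high for it, and the call was lost without that library (log2 fold change 0.41, edgeR adjusted p = 0.0556) and without sham replicate 1 (log2 0.55, edgeR adjusted p = 0.0502). In all, 5 of the 9 genes were without overlap at 35 days, where 38.4% of all genes were.

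Prom1, Msi1 and Hopx did not pass. Their log2 differences at 35 days were 0.29 (95% interval -0.10 to 0.68), 0.11 (-0.10 to 0.33) and -0.08 (-0.44 to 0.29). Hopx was already among the most abundant of the genes in sham cords, at 92.7 ± 8.99 CPM (SD, n = 3), and stood at 88.0 ± 18.8 CPM (SD, n = 4) in injured control cords.

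**Figure D2:**
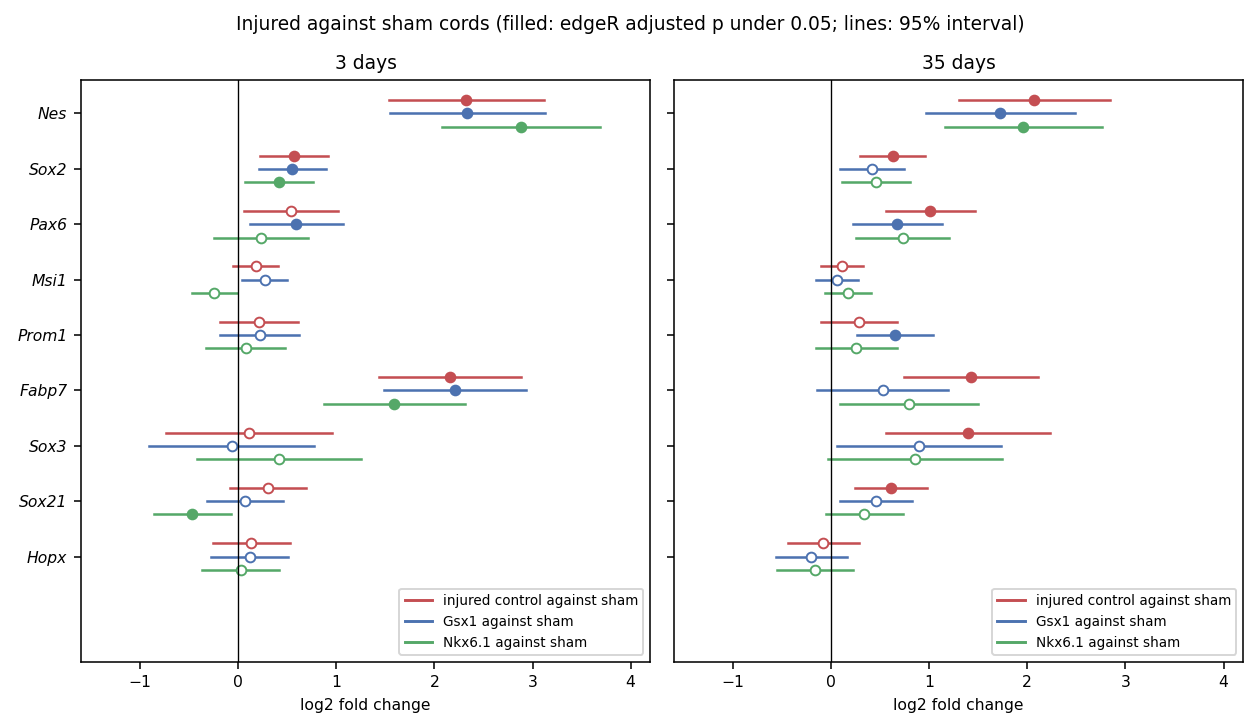
Log2 fold change of each gene against sham cords (horizontal axis) at 3 and at 35 days, for injured control (red), Gsx1 (blue) and Nkx6.1 cords (green), with 95% intervals as lines and filled points for genes called by edgeR. Nes and Fabp7 lie farthest from 0 at 3 days (2.32 and 2.16 in control cords), and Pax6, Sox3 and Sox21 are filled for control cords at 35 days.

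Control replicates 1 and 4 at 35 days were both high in Xist, and among libraries low in Xist the comparison rested on control replicates 2 and 3 and sham replicates 1 and 2. There Nes was the 1 gene of the 9 still called. The log2 differences were 0.64 for Fabp7 (edgeR adjusted p = 0.255), 0.40 for Pax6 (0.218), 0.29 for Sox2 (0.37), 0.53 for Sox21 (0.125) and 0.26 for Sox3 (0.769), all of the same sign as with all libraries. With a term for Xist in the model of all libraries, all 6 genes were called.

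Other measures moved with the same libraries. The 9 ependymal markers summed to 124 and 154 CPM in control replicates 1 and 4 and to 103 and 95.3 CPM in replicates 2 and 3, against 59.9 to 67.2 CPM in sham libraries. The reactive astrocyte sum was 11217 and 9974 CPM in replicates 1 and 4 and 5602 and 7013 CPM in replicates 2 and 3. The neuron sum was 4409 CPM in replicate 4 and 7897 to 9634 CPM in the other 3. High libraries recurred in the treated groups. Gsx1 replicate 3 had the most Fabp7, Pax6, Sox2 and Sox3 of its group (75.2, 20.8, 104 and 4.60 CPM) and the highest ependymal sum (115 against 78.8 to 98.0 CPM). Nkx6.1 replicate 3 had the most Nes, Fabp7, Pax6 and Sox2 of its group (124, 88.7, 22.4 and 97.8 CPM), the highest ependymal sum (131 against 66.7 and 107 CPM) and the highest reactive astrocyte sum (8768 against 3943 and 5302 CPM). Neither of these 2 libraries was high in Xist. The part of ependymal and reactive astrocyte content in the 35-day values was not tested.

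**Figure D3:**
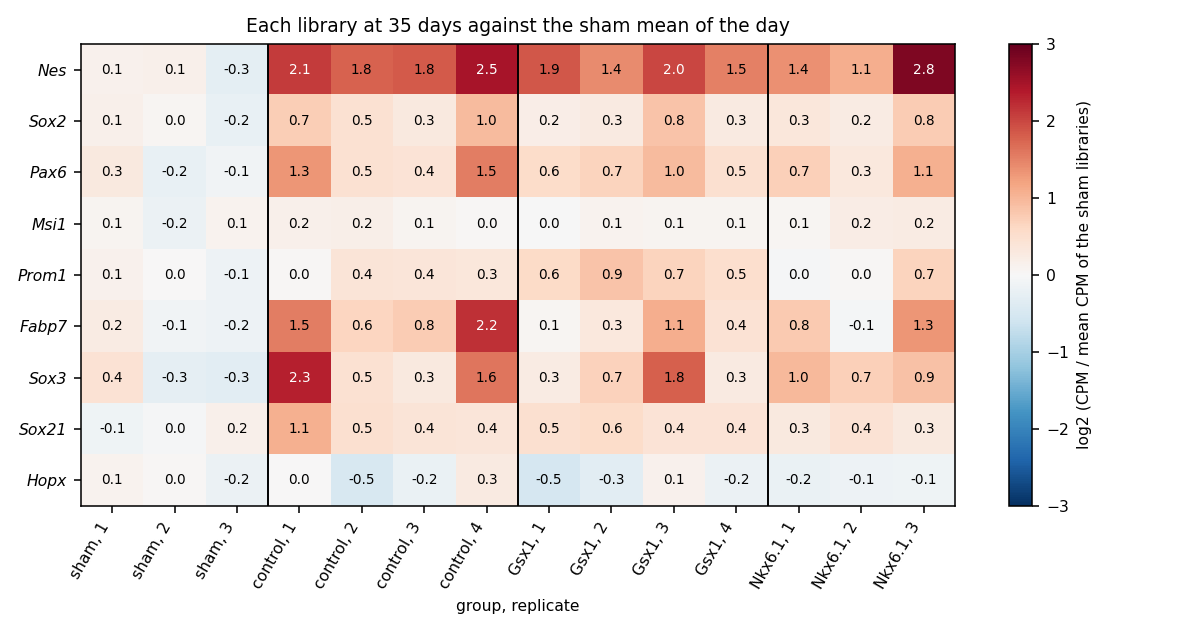
Heat map of the 9 genes (rows) in the 14 libraries taken at 35 days (columns, by group and replicate), where colour and number give the log2 ratio of the library's CPM to the mean CPM of the 3 sham libraries. Control replicates 1 and 4, at 103 and 163 CPM for Fabp7, are the highest control libraries for Fabp7, Pax6, Sox2 and Sox3, and Gsx1 replicate 3 is the highest of its group for the same genes.

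Across all 32 libraries, deviations from the group means moved together for part of the set. Pearson's r of these deviations was 0.73 between Sox2 and Fabp7, 0.68 between Pax6 and Fabp7 and between Pax6 and Sox3, 0.67 between Fabp7 and Sox3 and 0.66 between Sox2 and Pax6. Nes was less tied to them (0.48 with Fabp7, 0.31 with Sox2), and with Sox21 its r was -0.30. The libraries share their preparation and their depth between genes, so these values are descriptions.

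Gsx1 cords were compared with injured control cords at each day, to ask whether the delivered factor moved progenitor genes. No member passed at 3, 14 or 35 days, and 0% of all genes did at any of these days by edgeR. At an unadjusted p under 0.05 there were 0, 1 and 2 members, where 338, 960 and 3077 of the 16314 genes had such a p. DESeq2 called 0 members on each day, and 0%, 0.288% and 0.0858% of all genes. At 3 days the means were nearly level: Nes was at 154 ± 91.1 against 153 ± 48.6 CPM, Fabp7 at 138 ± 45.3 against 133 ± 16.9 CPM and Sox2 at 87.5 ± 11.0 against 88.3 ± 8.33 CPM (SD, n = 3 each). Their 95% intervals on the log2 scale were -0.73 to 0.75, -0.63 to 0.74 and -0.36 to 0.33. The single Gsx1 libraries differed widely for Nes, at 259, 109 and 94.4 CPM. Replicate 1, with the most Nes, also had the highest mitosis sum (519 against 233 and 277 CPM).

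At 14 days Hopx was higher in all 3 Gsx1 libraries (78.1, 79.5 and 75.9 CPM) than in the 3 control libraries (46.1, 48.6 and 70.1 CPM). The log2 difference was 0.50 ± 0.19 (SE, unadjusted p = 0.0143) and did not pass the adjustment (edgeR adjusted p = 0.638). Control cords at 14 days had the lowest mean Hopx of the 10 groups. The fibroblast sum was 3391 to 4202 CPM in these control libraries and 658 to 1474 CPM in the Gsx1 libraries, and the sum of 10 Schwann and satellite glia markers was 992 to 1946 against 266 to 787 CPM, both without overlap. Their part in the difference was not tested. Sox3 was the other member without overlap, at 2.86, 2.18 and 3.13 against 1.80, 2.13 and 2.13 CPM, with a log2 difference of 0.42 (95% interval -0.42 to 1.27). Nes was at 54.5 ± 11.3 in Gsx1 and 74.8 ± 11.5 CPM in control cords (SD, n = 3 each), with a log2 difference of -0.46 (-1.21 to 0.30). Of all genes, 15.9% were without overlap on this day.

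At 35 days Fabp7 had the largest difference of the set, and it was lower with Gsx1. Its Gsx1 libraries held 36.8, 44.0, 75.2 and 47.7 CPM, and the control libraries held 103, 55.01, 59.8 and 163 CPM, so the groups overlapped. The log2 difference was -0.90 ± 0.29 (SE, 95% interval -1.51 to -0.30, unadjusted p = 0.00502), with an edgeR adjusted p of 0.194. Leaving out control replicate 2 gave -1.09 (edgeR adjusted p = 0.0294), the 1 setting in which it was called. Over the 8 fits that left out 1 library the log2 difference of Fabp7 ran from -1.15 to -0.51. The control libraries with the most Fabp7 were replicates 1 and 4, those high in Xist, whereas no Gsx1 library was high in Xist. Prom1 went the other way and was the member without overlap (4.37% of all genes were). It was at 20.5, 25.0, 21.8 and 19.5 CPM in Gsx1 and 14.0, 18.0, 17.7 and 17.5 CPM in control libraries, with a log2 difference of 0.37 ± 0.17 (SE, adjusted p by edgeR = 0.251). The other 7 members had log2 differences of -0.50 to -0.05, none past the threshold.

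Nkx6.1 cords were compared with the same control cords at 3 and 35 days. At 3 days no member passed with edgeR, where 0.337% of all genes did. Sox21 and Msi1 came nearest, both lower with Nkx6.1 and without overlap. Sox21 was at 9.93, 10.0 and 7.76 CPM against 13.4, 18.6 and 15.2 CPM in control libraries (log2 difference -0.77 ± 0.19 SE, edgeR adjusted p = 0.0621). Msi1 was at 26.2, 27.1 and 24.6 CPM against 29.8, 38.7 and 35.7 CPM (log2 difference -0.42 ± 0.11 SE, edgeR adjusted p = 0.0753). DESeq2 called both (adjusted p of 0.0132 and 0.023), at a rate of 2.83% of all genes. With edgeR both were called without control replicate 1, without Nkx6.1 replicate 3 and among libraries low in Xist. Control replicate 1 was the only library of these groups high in Xist (778 CPM), so the first and last of these fits drop the same library here. It also had the lowest Sox21 and Msi1 of the control libraries. Fabp7 and Pax6 were also lower in each Nkx6.1 library than in each control library, making 4 members without overlap where 18.1% of all genes were, and their log2 differences were -0.57 (95% interval -1.26 to 0.12) and -0.30 (-0.78 to 0.17).

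The sums of cell type markers differed between these groups too. The astrocyte sum was 5661 to 7001 CPM in Nkx6.1 and 7373 to 9699 CPM in control libraries at 3 days, without overlap. The macrophage and microglia sum was 6799 to 13918 CPM against 4775 to 7882 CPM. Nes stood at 258, 281 and 138 CPM in the Nkx6.1 libraries, and the 2 libraries with the most Nes had mitosis sums of 644 and 710.0 CPM, against 272 CPM in the other. Replicate 2, with the most Nes, had a skeletal muscle sum of 771 CPM against 37.8 and 71.8 CPM. The part of these markers in the values of Nes, Msi1 and Sox21 was not tested.

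At 35 days no member and 0% of all genes passed between Nkx6.1 and control cords, with 0 members and 2006 of the 16314 genes at an unadjusted p under 0.05, and 0 members and 0% of all genes by DESeq2. Fabp7 had the largest difference (61.2 ± 27.5 in 3 Nkx6.1 libraries and 95.1 ± 50.02 CPM in 4 control libraries, log2 -0.63, 95% interval -1.29 to 0.02). Nes in Nkx6.1 libraries was at 46.5, 38.1 and 124 CPM, a spread wider than the difference of means from control cords (69.7 against 75.4 CPM).

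**Figure D4:**
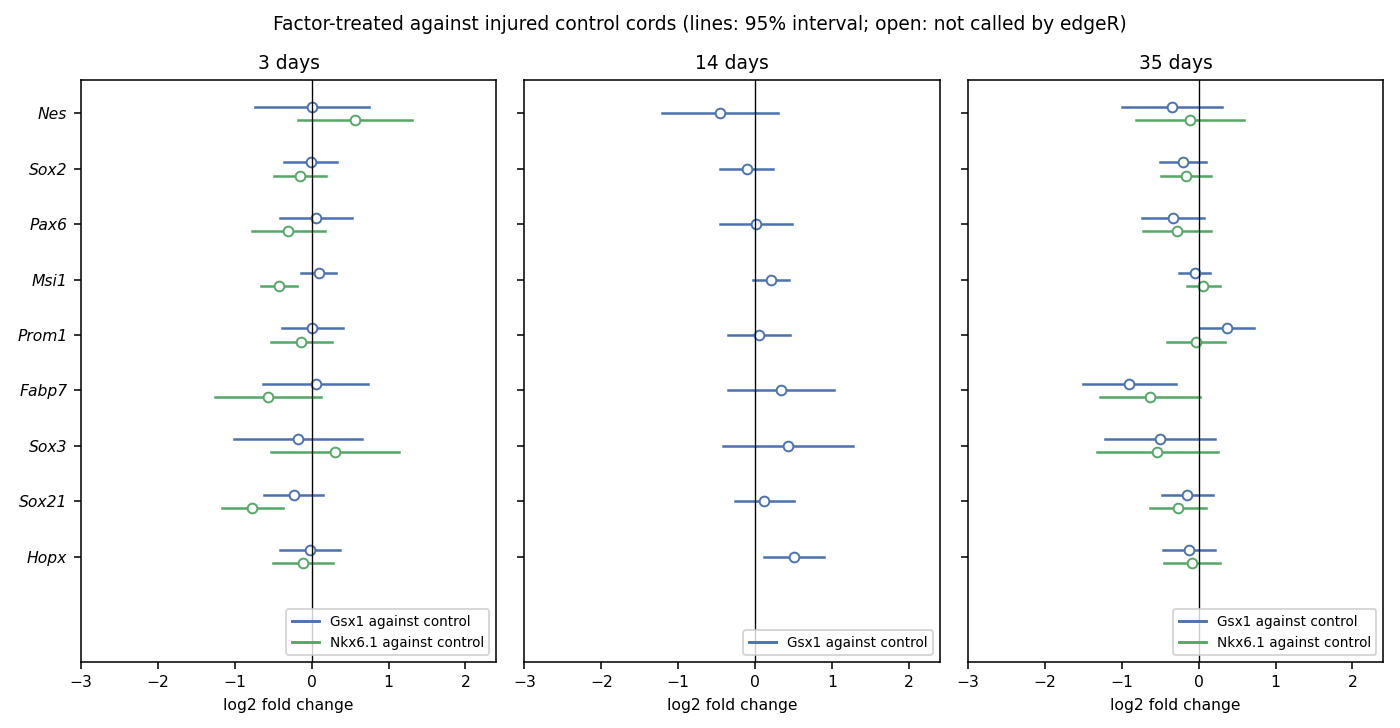
Log2 difference of each gene between treated and injured control cords (horizontal axis) at 3, 14 and 35 days, with 95% intervals as lines, for Gsx1 (blue) and for Nkx6.1 (green). All points are open, since edgeR called no member, and the points farthest from 0 are Fabp7 for Gsx1 at 35 days (-0.90) and Sox21 for Nkx6.1 at 3 days (-0.77).

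Direct comparison of Gsx1 with Nkx6.1 cords called 0 members at either day, with 0.0797% of all genes called at 3 days and 0% at 35 days. At 3 days Msi1 was higher with Gsx1 (37.0 ± 4.90 against 26.0 ± 1.24 CPM, SD, n = 3 each) with a log2 difference of 0.51 ± 0.11 (SE, adjusted p by edgeR = 0.0896), and DESeq2 called it (adjusted p = 0.00918), as it did 0.828% of all genes. Sox21 differed by 0.54 ± 0.19 on the log2 scale (SE, adjusted p by edgeR = 0.248). Libraries did not overlap at 3 days for Msi1, Pax6 and Fabp7, higher with Gsx1, and Sox3, lower, where 11.7% of all genes did not. At 35 days Prom1 had a log2 difference of 0.40 (95% interval 0.02 to 0.78, edgeR adjusted p = 1).

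Treated cords were also set beside sham cords, which are the same sham libraries as in the injury comparison, so the results are not independent of it. At 3 days Gsx1 cords had 4 members higher, Nes, Fabp7, Sox2 and Pax6, where 20.3% of all genes were higher and 37.7% changed in either direction. The log2 fold changes were 2.33, 2.21, 0.55 and 0.59. That of Nes was 1.73 without Gsx1 replicate 1 (edgeR adjusted p = 0.000995), and the call of Pax6 (edgeR adjusted p = 0.0441) was lost in 5 of the 6 fits that left out 1 library. Nkx6.1 cords had 3 members higher (27.9% of all genes) and 1 lower (26.4%, 54.3% in either direction). Nes rose by a log2 fold change of 2.88 ± 0.39 and Fabp7 by 1.59 ± 0.35 (SE, adjusted p by edgeR = 1.47e-06 and 0.000421). Sox2 rose by 0.42 and Sox21 fell by 0.46 on the log2 scale (edgeR adjusted p = 0.0385 and 0.0416), and the calls of both were lost in several fits that left out 1 library.

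At 35 days Gsx1 cords had 3 members higher than sham, where 8.63% of all genes were higher and 9.8% changed in either direction. Nes rose by 1.72 ± 0.37, Pax6 by 0.68 ± 0.22 and Prom1 by 0.66 ± 0.19 on the log2 scale (SE, adjusted p by edgeR = 0.00282, 0.0487 and 0.0254). Pax6 lost its call without any 1 of sham replicates 2 and 3 and each Gsx1 replicate other than 4, and Prom1 without sham replicate 2 or 3 or Gsx1 replicate 2. Fabp7 was not called (50.9 ± 16.8 CPM, n = 4, against 35.4 ± 5.53 CPM, n = 3, SD; log2 0.53, 95% interval -0.14 to 1.19). Nkx6.1 cords had Nes as the 1 member called, where 6.37% of all genes were higher and 7.2% changed in either direction, with a log2 fold change of 1.96 ± 0.39 (SE, adjusted p by edgeR = 0.00149). Without Nkx6.1 replicate 3 it was 1.24 (edgeR adjusted p = 0.0555). Pax6 narrowly missed the threshold in Nkx6.1 cords, with a log2 difference of 0.73 ± 0.23 (SE, adjusted p by edgeR = 0.0541). Against sham, 5 members were higher without overlap in Gsx1 cords and 5 in Nkx6.1 cords, where 34.7% and 35.1% of all genes were without overlap. The differing counts of called members are therefore not shown to be a difference between the treatments.

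Over time, Nes came down in all injured groups from its level at 3 days, and its mean was lower at 35 days in sham cords too. In control cords the mean was 153 ± 48.6 CPM at 3 days (n = 3), 74.8 ± 11.5 at 14 days (n = 3) and 75.4 ± 17.9 at 35 days (SD, n = 4). Between 3 and 35 days it fell by 1.02 ± 0.34 on the log2 scale in control cords (SE, adjusted p by edgeR = 0.0497), by 1.38 ± 0.34 in Gsx1 cords (0.00548) and by 1.69 ± 0.37 in Nkx6.1 cords (0.000822). The call in control cords was lost in 5 of the 7 fits that left out 1 library, and that in Gsx1 cords without replicate 1 at 3 days (log2 -0.78, edgeR adjusted p = 0.142). In Nkx6.1 cords the log2 difference was -2.41 without replicate 3 at 35 days (edgeR adjusted p = 2.65e-05). The mitosis sum was lower in every 35-day library than in every 3-day library of the same treatment. It was 341 to 349 CPM at 3 days and 51.6 to 68.8 CPM at 35 days in control cords, 233 to 519 and 39.7 to 87.0 CPM in Gsx1 cords, and 272 to 710.0 and 36.1 to 76.8 CPM in Nkx6.1 cords. Of the 10 endothelial markers, 6, 7 and 9 fell in control, Gsx1 and Nkx6.1 cords, where 5.97%, 12.4% and 21.5% of all genes did. The part of the mitosis and endothelial markers in the fall of Nes was not tested. In sham cords Nes was at 30.5 ± 2.28 CPM at 3 days and 17.9 ± 2.95 CPM at 35 days (SD, n = 3 each), a log2 difference of -0.77 ± 0.39 (SE, adjusted p by edgeR = 0.704).

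Fabp7 fell between 3 and 35 days in Gsx1 cords, from 138 ± 45.3 CPM (n = 3) to 50.9 ± 16.8 CPM (SD, n = 4), by 1.44 ± 0.31 on the log2 scale (SE, adjusted p by edgeR = 0.00227). In control cords the difference was -0.49 (95% interval -1.13 to 0.15), and the difference between these time courses, -0.95 (-1.86 to -0.04), did not pass (edgeR adjusted p = 0.496). Prom1 was lower at 35 days than at 3 days in each treatment. It fell by 0.71 ± 0.18 in control cords (SE, adjusted p by edgeR = 0.0127) and by 0.61 ± 0.20 in Nkx6.1 cords (0.0149). Its values were 28.3, 20.2 and 22.7 CPM at 3 days and 14.9, 13.8 and 12.5 CPM at 35 days in sham cords, without overlap, as for 25.1% of all genes (log2 difference -0.79 ± 0.20 SE, edgeR adjusted p = 0.293). In Gsx1 cords the log2 difference was -0.35 (95% interval -0.72 to 0.02). Msi1 and Sox21, low at 3 days in Nkx6.1 cords, rose to 35 days there by 0.45 ± 0.11 and 0.63 ± 0.19 (SE, adjusted p by edgeR = 0.00241 and 0.0094).

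The counts of members called over time can be read against all genes. They were 2 of 9 lower in control cords (5.97% of all genes lower and 11% either way), 2 lower in Gsx1 cords (12.4% lower, 20% either way), and 2 higher and 2 lower in Nkx6.1 cords (21% higher, 21.5% lower and 42.5% either way). In sham cords 0 of 9 and 0.00613% of all genes were called, with 1 member (Prom1) and 1171 of the 16314 genes at an unadjusted p under 0.05. DESeq2 called 1 member there, and 0.251% of all genes. Between 3 and 14 days in control cords 0 members passed (3.06% of all genes), with 3 members and 3258 of the 16314 genes at an unadjusted p under 0.05. DESeq2 called 2 members, and 6.05% of all genes. The largest differences there were -1.11 ± 0.34 for Fabp7 and -1.03 ± 0.37 for Nes (SE, adjusted p by edgeR = 0.0703 and 0.119).

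Whether the effects differed between 3 and 35 days was tested with interaction terms. No member passed for injury (0.362% of all genes passed), Gsx1 (0%) or Nkx6.1 (2.3%), and in each of the 3 terms 1 member had an unadjusted p under 0.05, where 1563, 1614 and 4266 of the 16314 genes did. These were Sox3 for injury (1.28 ± 0.58), Fabp7 for Gsx1 (-0.95 ± 0.44) and Msi1 for Nkx6.1 (0.48 ± 0.15, SE, edgeR adjusted p = 0.462, 0.496 and 0.0757), and DESeq2 called 0, 0 and 1, and 1.41%, 0% and 7.75% of all genes. The calls of Pax6, Sox3 and Sox21 at 35 days and not at 3 days are therefore not shown to be a difference between the days.

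Other genes of neural stem and progenitor cells were counted from a list of 25, of which 24 were tested. In injured control against sham cords 9 were higher and 2 lower at 3 days, with a median log2 fold change of 0.42, and 10 were higher and 1 lower at 35 days, with a median of 0.34. Of all genes, 19.5% were higher at 3 days and 21.3% at 35 days. The 2 that fell at 3 days were the Notch target Hes5 (fell by 2.04) and the SoxB1 factor Sox1 (fell by 0.69), and Sox1 was the 1 that fell at 35 days (fell by 0.72), all on the log2 scale and named after their values were seen. The smallest p-values at 3 days belonged to Vim, a filament protein (log2 fold change 3.96), Tnc, a matrix protein (3.50), Gfap, the astrocyte filament (1.73), and the receptor Notch1 (0.85). At 35 days they belonged to Vim (3.76), Gfap (2.08), the glial Sox factor Sox9 (1.24) and the BMP target Id3 (2.12). Vim and Gfap also stand in the reactive astrocyte list, of which 12 of 12 tested members were higher at both days.

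Factors that mark progenitor domains of the embryonic cord were counted in the same way. Of 16 listed, 12 were tested, and 3 rose at 3 days, where 19.5% of all genes did: Pax3 (log2 fold change 1.12), Dbx2 (0.62) and Irx5 (0.61). At 35 days 4 rose, where 21.3% of all genes did, and 1, Olig2, fell by 0.57 on the log2 scale. Those that rose were Pax3 (1.19), Irx5 (0.72) and Nkx6-1 (0.64), and Msx2 (1.47, named after its value was seen). Pax3 and Msx2 had low levels, with means of 1.06 and 0.474 CPM in sham and 2.44 and 1.31 CPM in injured control cords. Neither list had a member called in any comparison of Gsx1 or Nkx6.1 with injured control cords. Of all genes, edgeR called 0.337% for Nkx6.1 at 3 days and 0% in the other comparisons with control cords. At 35 days the median log2 difference of the 24 genes was -0.30 for Gsx1 and -0.21 for Nkx6.1, and that of all genes was -0.03 for each. The 12 domain factors had medians of -0.14 and -0.04. Both comparisons used the same control libraries, of which replicates 1 and 4 were the highest for Fabp7, Pax6, Sox2 and Sox3.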

How the data were processed

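RNA-seq was measured in 32 libraries. The authors deposited raw read counts per gene symbol, without normalization. The submitters' processing notes list HISAT2, SAMtools, HTSeq and DESeq2 and mm10 (GRCm38), and the sources used here give no versions, roles, annotation or strand setting. Counts were tested with edgeR 4.0.16 (R 4.3.3): TMM scaling, expression filter (minimum count 10, minimum total count 15), 1 model over 10 groups without covariates (22 residual degrees of freedom, common biological coefficient of variation 20.8%), quasi-likelihood F tests and Benjamini-Hochberg adjustment over 16314 genes per comparison. DESeq2 1.42.0 was an alternative, and the edgeR step was tested on simulated counts. Every member was tested in every comparison. Those called by edgeR are all named, but not every other result is described. Of the other lists, up to 4 genes with the smallest p were named, and for each member the 3 genes with the most similar group means. One gene that this rule names is not reported here. The members, lists and settings were chosen with earlier results of these data known. Depth was 10.8 to 19.5 M counts. Over 36 pairs of libraries of one group, Pearson's r of log2 CPM was 0.942 to 0.988, and no pair differed by counting noise alone (lowest chi-square per degree of freedom 3.74). Alternatives covered scaling, filter, replicate block, Xist, DESeq2, the groups fitted and leaving out each library.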

Additional observations from a re-analysis of the deposited data

Results flagged for a closer look

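Within the 35-day groups of 4 libraries, each of the 9 genes was checked for a library far from the others in the control and Gsx1 groups, 18 sets in all, of which chance flags about 1 in 20. Sox2 stood at 104 CPM in Gsx1 replicate 3, against 66.7 to 70.0 CPM in the other 3 libraries, and that library also had the highest ependymal sum of its group (115 CPM). Sox21 stood at 23.8 CPM in control replicate 1, against 14.6 to 15.8 CPM in the others, and Prom1 stood at 14.0 CPM in the same library, against 17.5 to 18.0 CPM. Control replicate 1 was high in Xist. The part of these measures was not tested.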

How the results depend on the processing

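Of 189 pairs of member and comparison, 29 were called, and 13 of these kept their call under every alternative run; none of the 29 reversed. Of the 160 pairs not called, 69 changed sign and 20 were called under some alternative. Replicate numbers were not treated as pairs: same-numbered libraries correlated above 0.1 in 11 of 40 pairs (-0.469 to 0.405), and with the replicate block 2 members were called for Nkx6.1 against sham at 35 days (1 without it) and 1 for control cords at 35 against 3 days (2 without it), with no other count moved by over 1.5 times. The settings below are those that moved a count of called members; the cause was not tested, beyond the fewer libraries of some fits. Among libraries low in Xist, an alternative chosen after seeing the data, the counts were 1 for injury at 35 days (6), 2 for Nkx6.1 against control at 3 days (0), 2 for Nkx6.1 against sham at 35 days (1), 1 for control cords at 14 against 3 days (0) and 1 at 35 against 3 days (2), where the brackets hold the main counts. With only the groups compared in the fit they were 3 for injury at 35 days, 2 and 0 for control cords at 14 and 35 against 3 days, 2 for sham cords over time (0) and 2 for Nkx6.1 cords over time (4). DESeq2 called 2 for Nkx6.1 against control at 3 days, 1 for Gsx1 against Nkx6.1 at 3 days (0), 2 for Nkx6.1 against sham at 35 days, 2 for control cords at 14 against 3 days, 1 for sham cords over time and 1 for the Nkx6.1 interaction (0). For Nkx6.1 against sham at 35 days, DESeq2 size factors, no expression filter, a fit without the 2 libraries of mixed sex and a term for Xist each gave 2. A term for Xist gave 2 for Nkx6.1 against sham at 3 days (4) and 1 for control cords at 35 against 3 days. For control cords at 14 against 3 days, the fit without those 2 libraries gave 1 and covariates for H2-Bl and Rpl29 gave 2. Leaving out 1 library gave 3 to 4 members for injury at 3 days and 4 to 6 at 35 days, 3 to 4 and 1 to 3 for Gsx1 against sham at 3 and 35 days, and 2 to 3 and 0 to 2 for Nkx6.1 against sham. It gave 0 to 1 for Gsx1 against control at 35 days, 0 to 2 for Nkx6.1 against control and for Gsx1 against Nkx6.1 at 3 days, 0 to 1 for control cords at 14 against 3 days, 1 to 2 at 35 against 3 days, 1 to 2 for Gsx1 cords and 3 to 5 for Nkx6.1 cords over time, and 0 to 1 for the Nkx6.1 interaction; the other counts were 0 throughout. Depth limits Sox3 most, at 13 to 83 counts per library.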

Other observations

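The genes whose group means ran closest to each member were found among 13930 genes by Pearson's r of mean log2 CPM over the 10 groups, which share libraries and injury state, so r is a description. Among the genes nearest to Nes were Iqgap2 (r = 0.996) and Atf1 (0.994). Sox2 ran closest to Fxyd3 (0.98), Trip6 (0.978) and Tapbpl (0.972), and Fabp7 to Ifi27l1 (0.978), Lap3 (0.971) and Abhd4 (0.970). Pax6 ran closest to Crb2, a polarity protein of the apical membrane (0.966), with Bdh2 (0.960) and Fam189a2 (0.954) next. For Sox21 the nearest were Bmpr1b, a BMP receptor (0.911), Lekr1 (0.906) and Bmp6, a BMP ligand (0.903). Msi1 ran closest to Sfxn5 (0.931), Atp1b2, a sodium pump subunit (0.908), and Mras (0.904), Prom1 to Zfp366 (0.9751), Asf1a (0.946) and B4galnt2 (0.941), Hopx to Cgrrf1 (0.957), Dmap1 (0.952) and Coa3 (0.940), and Sox3 to Itpkc (0.936), Ctu1 (0.928) and Tmem107 (0.923). Within groups the same pairs were looser: r of the deviations from the group means was 0.77 for Fabp7 with Ifi27l1 and 0.61 for Nes with Iqgap2, and it was -0.18 for Sox3 with Itpkc.

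Immature neuron markers were counted beside the members. Of 6 tested in injured control against sham cords, Tubb2b and Sox4 rose at 3 days (log2 fold changes 1.06 and 0.90), and Neurod1 fell by 1.74 on the log2 scale. At 35 days Sox4 (1.32) and Igfbpl1 were higher. Of all genes, 19.5% rose at 3 days and 21.3% at 35 days. Changes in either direction were called for 35.5% and 36.8%. The summed level of the listed markers was 203 to 205 CPM in sham libraries and 368 to 407 CPM in injured control libraries at 3 days. At 35 days it was 186 to 229 CPM in sham libraries and 298, 179, 193 and 265 CPM in control replicates 1 to 4. The list had 0 members called for Gsx1 or Nkx6.1 against control cords at any day. Of all genes, 0.337% were called for Nkx6.1 at 3 days and 0% in the other comparisons with control cords.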
